A study of Rattus norvegicus with 19 samples.

Results

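Matrix genes of bone, cartilage and tendon were followed in the left ventricle of rats across 7 groups and 19 libraries. The list held 10 symbols (Ibsp, Spp1, Comp, Cilp, Chad, Acan, Fmod, Tnmd, Mgp and Ogn) and was chosen on the readout, because Ibsp was among the largest rises in HFpEF versus control 5w. The values of that contrast are therefore a description, and counts past a threshold in it are not read as a test. Of the 10 symbols, 9 were among the 17455 genes of the count files, and 8 of these passed the filter on low counts with 12388 genes in all. Acan was not analysed here. Tnmd, a membrane protein of tendon cells, had 12 counts in total, spread over 8 libraries with at most 4 in any of them, and did not pass the filter.

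Sprague–Dawley rats 24 weeks old at the start were used, and the hearts sequenced were described as male. HFpEF (heart failure with preserved ejection fraction) was modelled over 5 weeks. Rats drank water with 0.5 g/L L-NAME, which blocks nitric oxide synthesis, and ate a high-fat diet with 60% of kilocalories from lard. The group named HFpEF was taken at week 5 (n = 3). The groups untreated (n = 3), EMPA (n = 2), PFD (n = 2) and EMPA + PFD (n = 3) had the same induction and then 4 weeks of daily gavage, and were taken at week 9. They received phosphate-buffered saline, empagliflozin at 0.35 g/kg/day, pirfenidone at 0.3 g/kg/day, or both drugs at these doses. The study's discussion also refers to an induction of 9 weeks, and whether L-NAME and the diet continued during gavage was not clear. The healthy groups, control 5w (n = 3) and control 9w (n = 3), had normal chow and no L-NAME. In EMPA and in PFD, 1 sample each had been excluded for corrupted files. Library totals ran from 7430539 to 13017754 counts, with a median of 9951011. Levels are given as CPM, the count of a gene per 1000000 counts of the tested genes in its library, scaled by the trimmed mean of M-values (TMM).

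Bone, cartilage and tendon owe their properties to what their cells secrete. Acidic phosphoproteins such as osteopontin and bone sialoprotein bind mineral and integrins, thrombospondins and leucine-rich proteoglycans set how collagen fibrils assemble, and Gla proteins restrain mineral deposition. In the heart, several of these genes are known from fibroblasts, vascular cells and macrophages, while others are best known from cartilage and bone.

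Some libraries stood apart from the rest of their group, and this bears on nearly every member. HFpEF replicate 1 and EMPA replicate 2 held 1738 and 1153 CPM of 13 chondrocyte marker genes summed, against 25.2 to 121 CPM in the other 17 libraries. Control 5w replicates 2 and 3 held 7085 and 6081 CPM of 8 activated fibroblast markers, against 248 CPM in replicate 1. Atrial cardiomyocyte markers reached 23372 CPM in control 9w replicate 3 and 14891 CPM in untreated replicate 2, against a median of 710 CPM over the 17 libraries other than HFpEF replicate 1 and EMPA replicate 2. The Y-linked gene Eif2s3y was at 0 counts in HFpEF replicates 1 and 3 and in each untreated and PFD library, and at 613 to 1321 counts in the other 12, although the hearts were described as male. Several results that rest on HFpEF replicate 1 or EMPA replicate 2 are given with and without them.

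Ibsp encodes bone sialoprotein, a secreted phosphoprotein of mineralized matrix. It had 0 counts in each of the 3 control 5w libraries, and 996, 8 and 12 counts in HFpEF replicates 1, 2 and 3. In CPM the HFpEF libraries were at 71.5, 0.734 and 1.07. A single HFpEF library was thus far above its group, and the other pair lay close to the floor of 3 counts per library, which is 0.215 to 0.400 CPM. At week 9, Ibsp was at 1.47, 1.23 and 1.89 CPM in control 9w and at 1.58, 2.60 and 1.26 CPM in untreated. It was at 1.33 and 237 CPM in EMPA, at 1.10 and 1.13 CPM in PFD and at 2.01, 1.08 and 1.57 CPM in EMPA + PFD. EMPA replicate 2 was the other library far above its group, with 1952 counts against 10 in EMPA replicate 1. In bulk tissue, fewer or more cells of a type and less or more RNA per cell cannot be told apart.

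By group mean, Ibsp was highest in EMPA (119 ± 167 CPM, SD, n = 2), followed by HFpEF (24.4 ± 40.7 CPM, SD, n = 3), and in both the SD exceeded the mean. Untreated (1.82 ± 0.697 CPM), EMPA + PFD (1.55 ± 0.467 CPM), control 9w (1.53 ± 0.337 CPM) and PFD (1.11 ± 0.0256 CPM) came next, and untreated, EMPA + PFD and control 9w did not differ beyond their SDs. Without replicate 1, HFpEF was at 0.903 ± 0.239 CPM (SD, n = 2), below every week 9 group mean. Against control 5w, taken at the floor of 3 counts per library, the HFpEF mean was at least 97.2-fold higher, and the mean of HFpEF replicates 2 and 3 was at least 3.59-fold higher. The same bound was at least 6.09-fold for control 9w and at least 7.22-fold for untreated. Floors cover counting error only, since reads made by PCR without molecular identifiers are not independent molecules.

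Few genes shared the pattern of Ibsp, with 0 counts in control 5w and at least 3 in every other library. Of the 17455 genes in the files, 4 had 0 counts in all 3 control 5w libraries and at least 3 in each of the other 16. They were Ibsp, the melanoma antigen family gene Magea11 (3 to 64 counts elsewhere), RGD1306750 (15 to 113 counts) and the taste receptor gene Tas2r120 (3 to 49 counts), all but Ibsp named after their values were seen. The opposite pattern, at least 3 counts in each control 5w library and 0 in all others, was found for 0 genes by this count, to which no test was applied.

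Spp1 encodes osteopontin, which binds integrins and CD44 and is made by macrophages as well as bone cells. It was at 14.5, 141 and 107 CPM in control 5w and at 536, 14.7 and 162 CPM in HFpEF. These groups overlapped, and control 5w replicate 1 and HFpEF replicate 2 were the low libraries. Leaving out HFpEF replicate 1 took the HFpEF mean of Spp1 from 238 ± 269 CPM (SD, n = 3) to 88.2 ± 104 CPM (SD, n = 2). At week 9, Spp1 was at 2.48, 0.246 and 22.5 CPM in control 9w and at 1.58, 10.9 and 20.0 CPM in untreated. It was at 31.6 and 458 CPM in EMPA, at 2.85 and 3.09 CPM in PFD and at 0.355, 3.71 and 4.39 CPM in EMPA + PFD. Both EMPA libraries were above every untreated library, where groups did not overlap for 23.7% of all genes. EMPA replicate 2 was 14.5-fold above EMPA replicate 1. By mean, the order was EMPA, HFpEF, control 5w, untreated, control 9w, PFD and EMPA + PFD. From control 5w down, no neighbours but control 5w and untreated differed by more than their SDs (87.5 ± 65.5 and 10.8 ± 9.22 CPM, SD, n = 3 each). Without EMPA replicate 2, the EMPA library left, at 31.6 CPM, was below the control 5w mean. The HFpEF mean without replicate 1, at 88.2 CPM, was close to that of control 5w.

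Comp encodes cartilage oligomeric matrix protein, a thrombospondin that binds collagen fibrils in cartilage and tendon. It was at 1.51, 2.56 and 1.19 CPM in control 5w and at 402, 3.30 and 29.4 CPM in HFpEF. HFpEF replicate 1 was at 122-fold the level of HFpEF replicate 2 and 13.7-fold that of HFpEF replicate 3. At week 9, Comp was at 2.59, 2.34 and 3.09 CPM in control 9w and at 1.58, 3.57 and 3.48 CPM in untreated. It was at 4.39 and 223 CPM in EMPA, at 1.20 and 1.54 CPM in PFD and at 1.66, 1.08 and 2.72 CPM in EMPA + PFD. EMPA replicate 2 stood 50.7-fold above EMPA replicate 1, and the remaining week 9 libraries lay within 1.08 to 4.39 CPM. Without replicate 1, the HFpEF mean went from 145 ± 223 CPM (SD, n = 3) to 16.3 ± 18.4 CPM (SD, n = 2), since HFpEF replicate 3 was also raised.

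Chad encodes chondroadherin, a leucine-rich repeat protein of cartilage that binds collagen and cells. It was at 3.96, 3.57 and 4.38 CPM in control 5w and at 27.1, 4.03 and 2.68 CPM in HFpEF. At week 9, it was at 1.86 CPM in EMPA replicate 1 and 32.9 CPM in EMPA replicate 2, and the other 11 week 9 libraries ran from 2.72 to 4.84 CPM. The 17 libraries other than HFpEF replicate 1 and EMPA replicate 2 thus ran from 1.86 to 4.84 CPM. Leaving out HFpEF replicate 1 took the HFpEF mean from 11.3 ± 13.7 CPM (SD, n = 3) to 3.36 ± 0.958 CPM (SD, n = 2), beside 3.97 ± 0.404 CPM (SD, n = 3) in control 5w.

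Fmod encodes fibromodulin, a small leucine-rich proteoglycan that guides collagen fibril assembly in tendon and cartilage. It was at 3.67, 5.90 and 5.57 CPM in control 5w and at 119, 7.70 and 18.8 CPM in HFpEF. Leaving out HFpEF replicate 1 took the HFpEF mean of Fmod from 48.5 ± 61.2 CPM (SD, n = 3) to 13.3 ± 7.88 CPM (SD, n = 2). At week 9, Fmod was at 16.4, 12.5 and 19.3 CPM in control 9w and at 9.39, 18.6 and 26.1 CPM in untreated. It was at 12.0 and 140 CPM in EMPA, at 5.37 and 7.72 CPM in PFD and at 5.56, 11.8 and 10.9 CPM in EMPA + PFD. Both PFD libraries lay below all untreated libraries, where groups did not overlap for 24.2% of all genes. All EMPA + PFD libraries lay below all control 9w libraries, where groups did not overlap for 51.2% of all genes. Ogn encodes osteoglycin, another proteoglycan of this family, and behaved differently: it ran from 11.6 to 70.8 CPM over the 19 libraries, and was at 29.7 CPM in HFpEF replicate 1 and 19.2 CPM in EMPA replicate 2. The highest Ogn group mean was in control 5w (46.2 ± 24.0 CPM, SD, n = 3) and the lowest in EMPA (20.1 ± 1.31 CPM, SD, n = 2).

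Cilp encodes cartilage intermediate layer protein, which is secreted by chondrocytes and by cardiac fibroblasts. It was at 8.86, 277 and 267 CPM in control 5w and at 361, 80.4 and 220 CPM in HFpEF. Control 5w replicate 1 stood alone at the low end of week 5, with replicates 2 and 3 at 31.3-fold and 30.2-fold its level, so the week 5 groups overlapped. At week 9, Cilp was at 24.5, 21.4 and 28.3 CPM in control 9w and at 11.2, 43.7 and 45.7 CPM in untreated. It was at 13.5 and 143 CPM in EMPA, at 33.7 and 14.7 CPM in PFD and at 6.03, 8.13 and 10.6 CPM in EMPA + PFD. The EMPA + PFD libraries were below every control 9w and untreated library, where groups did not overlap for 51.2% and 37.5% of all genes.

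Mgp encodes matrix Gla protein, an inhibitor of soft tissue calcification made by vascular smooth muscle cells and chondrocytes. It was at 357, 1743 and 1486 CPM in control 5w and at 3537, 1728 and 2428 CPM in HFpEF, where the groups overlapped by a single pair of libraries. At week 9, it ran from 382 CPM in EMPA + PFD replicate 1 to 1394 CPM in untreated replicate 2, and was at 413 and 906 CPM in EMPA. HFpEF replicate 1 was 2.05-fold and 1.46-fold above HFpEF replicates 2 and 3, and EMPA replicate 2 was 2.19-fold above EMPA replicate 1. For Ibsp the same ratios were 97.4, 66.7 and 178.

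**Figure D1:**
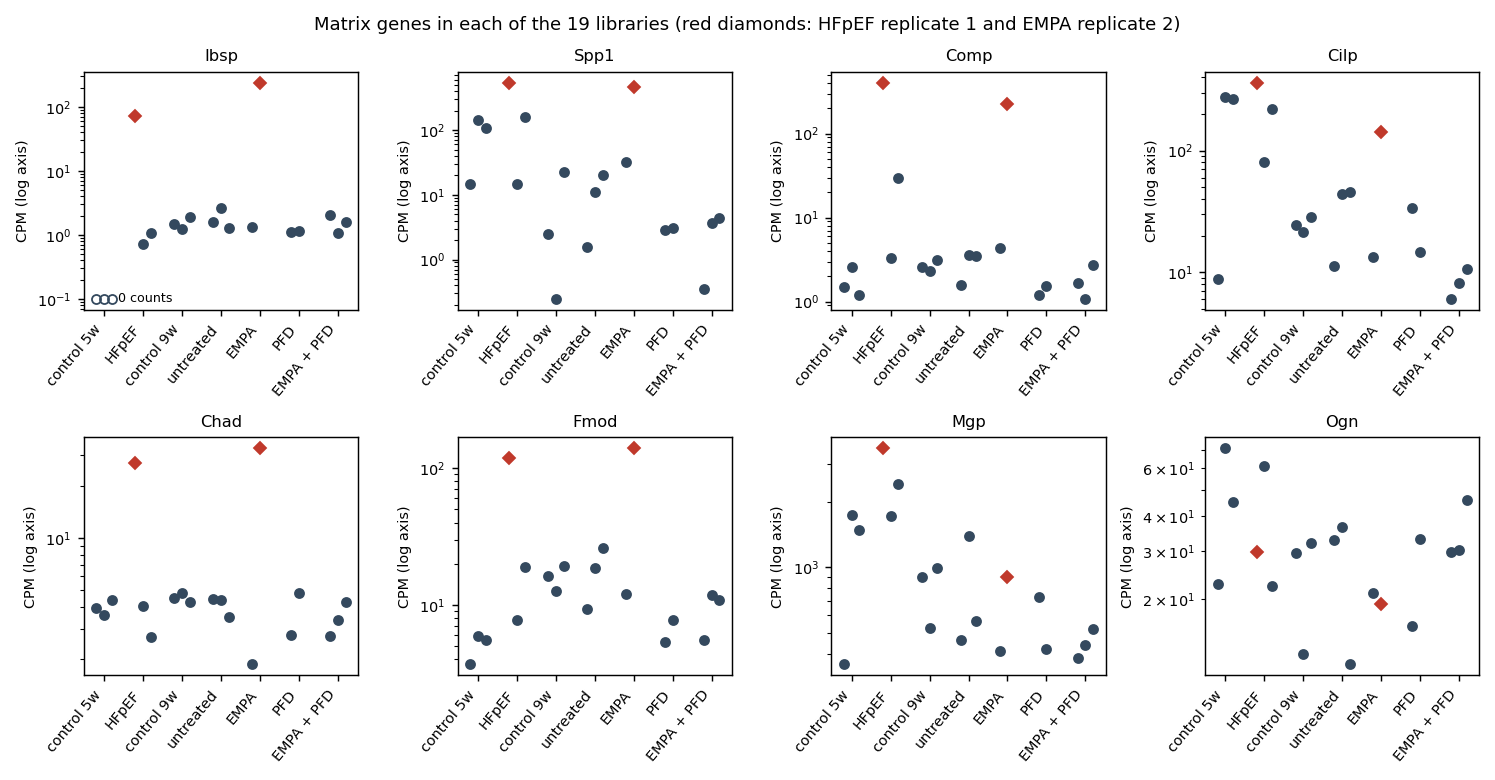
Level of the 8 tested members in each of the 19 libraries (1 point each), in CPM on a log scale, by group; open circles mark 0 counts and red diamonds mark HFpEF replicate 1 and EMPA replicate 2. Ibsp, Comp, Chad and Fmod are high in HFpEF replicate 1 and EMPA replicate 2, while Cilp, Spp1 and Mgp are also high in control 5w replicates 2 and 3.

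Week 5 values chose the list, so the counts of that contrast are given without reading anything from them. In HFpEF versus control 5w, 3 of the 8 tested members (Ibsp, Comp and Fmod) were past an adjusted p of 0.05 and a fold of 2 in edgeR, beside 8.69% of all genes tested. The estimated log2 fold change was 6.35 for Comp and 3.26 for Fmod, and 3.21 and 1.39 without HFpEF replicate 1. Without HFpEF replicate 1 the count was 0, without both it and EMPA replicate 2 it was 2 (Ibsp and Comp), and without control 5w replicate 1, 2 or 3 it was 1 each time (Comp). The count over all genes fell too, from 1076 of 12388 to 826 of 12305 without HFpEF replicate 1, to 784 of 12531 without both, and to 730, 916 and 801 without control 5w replicates 1, 2 and 3. The median log2 fold change was 1.48 over the 8 members and 0.02 over all genes, and 0.40 and -0.02 without HFpEF replicate 1. Both medians over the members are the same with Ibsp at its lower bound.

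The question at week 9 was whether disease differed from health and whether the drugs moved these genes. In untreated versus control 9w, edgeR called 0 of the 8 members, against 0.912% of all genes tested (called means adjusted p under 0.05 and at least a 2-fold change). The count was 0 at an unadjusted p under 0.05, beside 18.2% of all genes, and 0 by DESeq2 and by limma voom, which called 298 and 1037 of the 12388 genes. The log2 fold changes ran from -0.14 (Chad) to 0.44 (Cilp), with a median of 0.14 beside 0.01 over all genes. The 95% interval of the Ibsp estimate reached from -3.73 to 4.25, so a change of several fold was not detectable in this fit. HFpEF replicate 1 and EMPA replicate 2 are outside this comparison but entered the spread of the fit. The interval without them is not given here. Groups did not overlap for 0 of the 8 members, beside 23.0% of all genes.

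In EMPA + PFD versus untreated, edgeR called 0 of the 8 members, against 3.82% of all genes tested. At an unadjusted p under 0.05 there were 0, beside 32.7% of all genes, and DESeq2 called 0, beside 715 of the 12388 genes. Limma voom called 1, beside 834 of the 12388, and it was Ogn (log2 fold change 1.30, limma adjusted p = 0.0421, and up to 0.720 under the other alternatives). The edgeR estimate for Ogn was 0.38 (SE 0.51, edgeR adjusted p = 0.613). Cilp had a log2 fold change of -2.02 (SE 1.01, edgeR adjusted p = 0.178), and it was lower in each of the 3 EMPA + PFD libraries than in any untreated library. It was the 1 member of 8 whose groups did not overlap, beside 37.5% of all genes. Spp1 had a log2 fold change of -1.92 (SE 1.53, edgeR adjusted p = 0.388) and Mgp of -0.85 (SE 0.54, edgeR adjusted p = 0.278). The median over the members was -0.75 and over all genes -0.03.

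In EMPA versus untreated, edgeR called 0 of the 8 members, against 0.0404% of all genes tested, while 5 (Ibsp, Comp, Spp1, Chad and Fmod) had an unadjusted p under 0.05, beside 8.63% of all genes. DESeq2 called 1, Comp (log2 fold change 5.31, DESeq2 adjusted p = 0.0173, and up to 0.988 under the other alternatives), and limma voom called 0, beside 51 and 24 of the 12388 genes. An adjusted p was given for Comp under 10 of the other alternatives and for Ibsp under 9. For Ibsp, not called can thus also mean that no adjusted p was given. Ibsp had a log2 fold change of 6.004 (SE 1.77, edgeR adjusted p = 0.329), and Comp of 5.29 (SE 1.47, edgeR adjusted p = 0.260). Without EMPA replicate 2, which leaves a single EMPA library, the same estimates were -0.46 for Ibsp and 0.60 for Comp. Chad went from 2.08 to -1.13, Fmod from 2.07 to -0.59 and Cilp from 1.22 to -1.32, while Spp1 went from 4.50 to 1.54. Spp1 and Comp were higher in both EMPA libraries than in any untreated library, 2 of 8 members beside 23.7% of all genes.

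In PFD versus untreated, edgeR called 0 of the 8 members, against 0.00807% of all genes tested, with 0 at an unadjusted p under 0.05 (beside 5.21% of all genes) and 0 by DESeq2 or limma voom (beside 4 and 5 of the 12388 genes). All 8 estimates were below 0, with a median of -0.61 beside -0.02 over all genes. Ibsp, Comp and Fmod were lower in both PFD libraries than in any untreated library, 3 of 8 members beside 24.2% of all genes. Fmod had the estimate with the lowest p, at a log2 fold change of -1.46 (SE 1.02, edgeR adjusted p = 0.786).

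In EMPA + PFD versus control 9w, edgeR called 0 of the 8 members, against 12.1% of all genes tested, with 0 at an unadjusted p under 0.05 (beside 44.4% of all genes) and 0 by DESeq2 or limma voom (beside 1617 and 1958 of the 12388 genes). With only the 6 libraries compared in the fit, edgeR called 1, Cilp (log2 fold change -1.56, edgeR adjusted p = 0.00183, and up to 0.547 under the other alternatives), beside 1632 of the 11554 genes of that fit. With all 19 libraries, Cilp was at -1.58 (SE 1.01, edgeR adjusted p = 0.242). Cilp, Chad, Fmod and Mgp were lower in all 3 EMPA + PFD libraries than in any control 9w library, 4 of 8 members beside 51.2% of all genes. For the EMPA and PFD interaction, edgeR called 0 of the 8 members, against 0.00807% of all genes, with 0 at an unadjusted p under 0.05 (beside 9.13% of all genes) and 0 by DESeq2 or limma voom (beside 38 and 63 of the 12388 genes). The lowest adjusted p of a member in it was 0.595, for Spp1. With 3 libraries against 3, an exact permutation test of a single value cannot go below p = 0.1, so none was used.

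**Figure D2:**
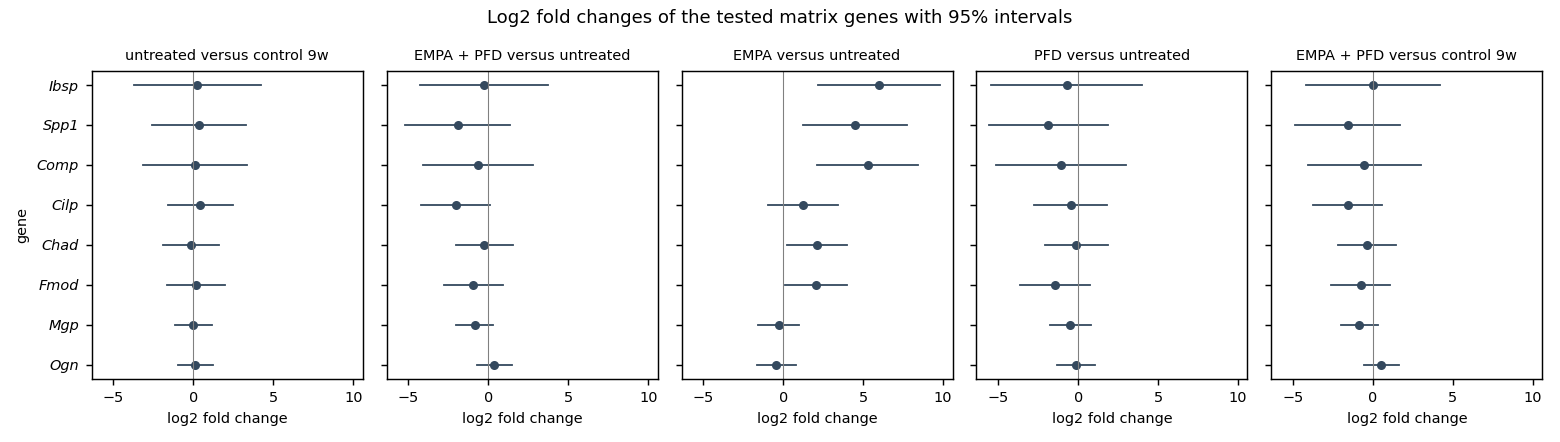
Log2 fold change of each tested member in the 5 week 9 comparisons (points), with 95% intervals as lines from the fit of all 19 libraries. In EMPA versus untreated, Ibsp is at 6.004 and Comp at 5.29 with EMPA replicate 2 in the fit.

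Genes that shared the pattern of HFpEF replicate 1 and EMPA replicate 2 were counted with a rule set after seeing the data. A gene was kept if it was at least 4-fold higher in HFpEF replicate 1 than in HFpEF replicates 2 and 3, and in EMPA replicate 2 than in EMPA replicate 1. This held for 69 genes, 0.557% of all genes tested, and for 4 of the 8 members (Ibsp, Comp, Chad and Fmod). At 2-fold it held for 258 genes and 5 members, with Spp1 added, and at 8-fold for 30 genes and 2 members (Ibsp and Comp). Of the 13 listed chondrocyte markers, 11 were tested and 10 were among the 69 genes. The transcription factor Sox9 was tested and not among them, and Matn1 and Ucma did not pass the filter. The filter could pass a gene through HFpEF replicate 1 and EMPA replicate 2 alone, so this share is not a test. Cnmd, for example, was at 1.08 and 5.83 CPM there and at most at 0.105 CPM elsewhere. Other genes of the 69, named after their values were seen, included Clec3a and Cilp2, which encode cartilage proteins, and Mmp13, a collagenase of cartilage and bone. Mepe, a phosphoprotein of the osteopontin family, and Grem1, which binds bone morphogenetic proteins (BMPs), were also among them. So were Actg2, Cdh1, Cdh3, Mlph, Pcsk1 and Scg2, which are in none of the gene lists used here.

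Chondrocyte markers gave the clearest contrast. All 13 were in the files, and their sum was 25.2, 70.4 and 74.0 CPM in control 5w and 1738, 41.8 and 36.4 CPM in HFpEF. At week 9 it was 60.2, 52.5 and 86.2 CPM in control 9w, 32.6, 121 and 37.1 CPM in untreated, and 38.0 and 1153 CPM in EMPA. In PFD it was 32.4 and 40.9 CPM, and in EMPA + PFD 36.3, 39.8 and 37.1 CPM. Their most abundant gene over all libraries was Col2a1, the main fibrillar collagen of cartilage, at 1148 CPM in HFpEF replicate 1, 737 CPM in EMPA replicate 2 and at most 1.79 CPM elsewhere. Matn1 was at 0 in both libraries, and Sox9 (16.4 and 11.9 CPM) and Ucma (0.574 and 0.364 CPM) were inside the range of the other 17. Hapln1 was at 43.6 CPM in HFpEF replicate 1 and 24.8 CPM in EMPA replicate 2, with control 9w replicate 3 at 25.1 CPM. The part of these markers in the members' values was not tested.

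Bone markers were less uniform. The 7 osteoblast markers in the files (of 8) summed to 108 CPM in HFpEF replicate 1 and 228 CPM in EMPA replicate 2, beside 59.1 to 160 CPM (median 102) in the other 17 libraries. Alpl was the most abundant. Bglap, which encodes osteocalcin, was at 1.44 and 28.8 CPM in these libraries and at most 0.861 CPM elsewhere, and Sp7, a transcription factor of osteoblasts, was at 0.789 and 2.67 CPM and at most 0.162 CPM elsewhere. The 5 osteoclast markers in the files (of 7), led by Ctsk, summed to 171 and 289 CPM, beside 22.7 to 212 CPM (median 34.5). Mmp9 was at 0.718 and 56.8 CPM and at most 1.04 CPM elsewhere, and Calcr was at 0 in both. EMPA replicate 2 was higher than HFpEF replicate 1 in Bglap, Sp7 and Mmp9, as it was in Ibsp, and lower in Phex (0.972 and 1.58 CPM) and Runx2 (23.7 and 28.9 CPM). For tenocytes, 3 of 4 markers were in the files and summed to 530 and 186 CPM, beside 16.4 to 367 CPM (median 35.0), almost all of it Thbs4 in HFpEF replicate 1 and EMPA replicate 2. Of the other tenocyte markers, Scx was at 11.1 and 11.9 CPM there, below the 12.4 to 45.0 CPM of the other 17, and Kera had at most 1 count in any library.

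Some other cell types differed between these libraries too. Ventricular cardiomyocyte markers, all 10 in the files and led by Myh6, summed to 14207 CPM in HFpEF replicate 1, the lowest of the 19 libraries, and to 41990 CPM in EMPA replicate 2, beside 18200 to 96578 CPM (median 51210). The 5 smooth muscle markers, led by Myh11, were at 1301 and 2263 CPM, above the 335 to 823 CPM of the other 17. The 11 macrophage markers, led by Lgals3, were at 2186 CPM in HFpEF replicate 1, above all others, and at 400 CPM in EMPA replicate 2. The 6 atrial markers, led by Nppa, were at 2089 and 5182 CPM (others 61.4 to 23372 CPM), the 5 endothelial markers, led by Vwf, at 1275 and 1747 CPM (others 1105 to 2809 CPM), and the 7 skeletal muscle markers, led by Tnnt3, at 115 and 112 CPM (others 32.8 to 113 CPM). Mesothelial markers (2 of 4 in the files, led by Wt1) were at 60.1 and 77.5 CPM (others 27.4 to 194 CPM), and the 4 adipocyte markers, led by Adipoq, at 3.73 and 2.06 CPM (others 0 to 5.44 CPM).

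Activated fibroblast markers were high in the libraries where Cilp was high. The 8 activated fibroblast markers, led by Postn, summed to 248, 7085 and 6081 CPM in control 5w and to 3947, 538 and 2067 CPM in HFpEF. At week 9 they were at 414, 209 and 899 CPM in control 9w, 194, 1270 and 425 CPM in untreated, and 302 and 1732 CPM in EMPA. In PFD they were at 407 and 181 CPM, and in EMPA + PFD at 208, 242 and 234 CPM. The libraries highest in them, control 5w replicates 2 and 3 and HFpEF replicates 1 and 3, were also the highest in Cilp. The 8 fibroblast markers, led by Col3a1, were at 17010 CPM in HFpEF replicate 1 and 8461 CPM in EMPA replicate 2, beside 3155 to 39950 CPM (median 6820) in the others, with the highest value in control 5w replicate 2. Their part in the members' values was not tested.

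**Figure D3:**
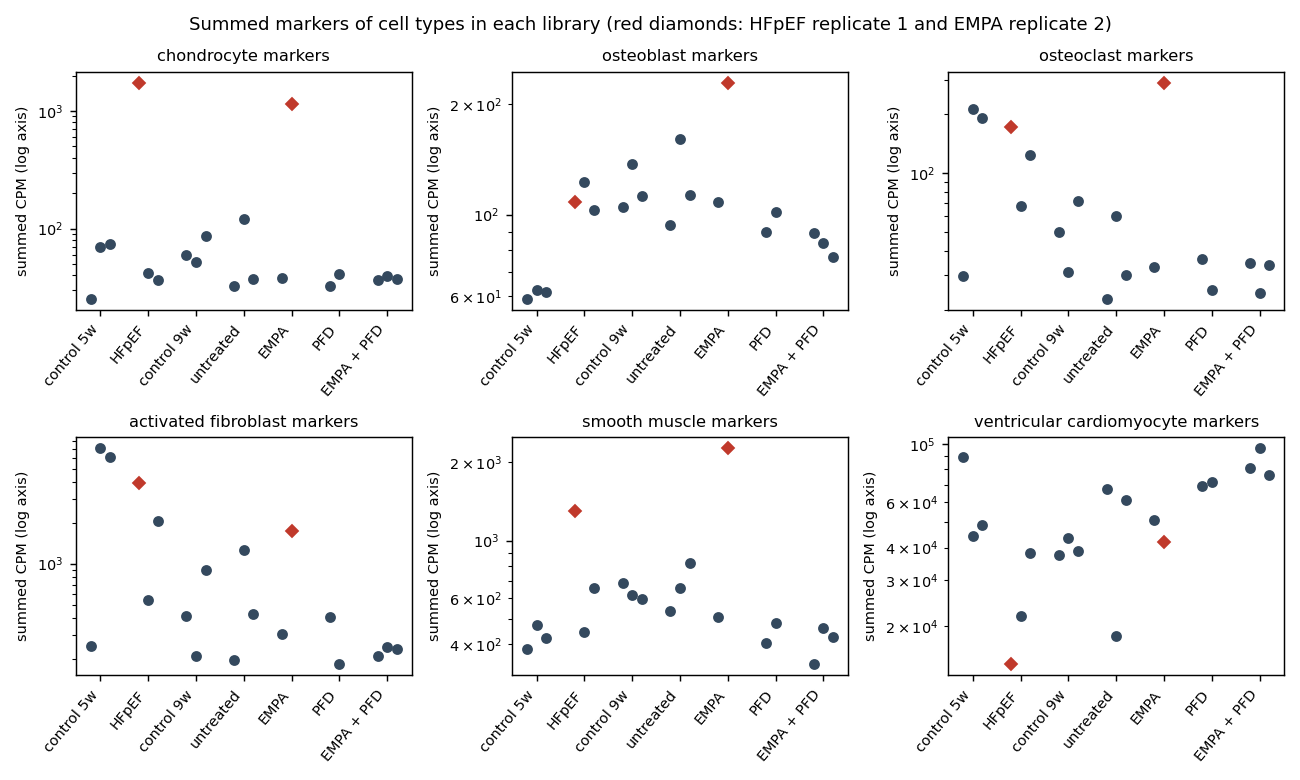
Summed CPM of the marker genes of 6 cell types in each of the 19 libraries (1 point each), on log scales, with HFpEF replicate 1 and EMPA replicate 2 as red diamonds. Chondrocyte markers are at 1738 CPM in HFpEF replicate 1 and 1153 CPM in EMPA replicate 2, and at 121 CPM or less elsewhere.

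The genes most like each member over the 19 libraries were found by Pearson correlation of log2 CPM, as a description that carries the group differences and the libraries that stood apart. For Ibsp they were Col9a2 (r = 0.91) and Col9a3 (r = 0.90), chains of a cartilage collagen, and without HFpEF replicate 1 and EMPA replicate 2 the values were 0.54 and 0.59 over 17 libraries. For Comp they were Col2a1 (r = 0.97, and 0.89 over 17) and Clec3a (r = 0.94). Clec3a had at most 3 counts in the 17 libraries, so its r over 17 is not read. Col2a1 had at most 20 counts there, with a median of 0.11 CPM, so most of its values lay below the floor of 3 counts. Chad was most like the channel gene Panx3 (r = 0.93) and Clec3a (r = 0.92), and both values rested on the libraries left out, since Panx3 had at most 1 count and Clec3a at most 3 in the other 17. For Fmod, the smooth muscle gene Tagln was among the most alike (r = 0.94, and 0.83 over 17).

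Cilp was most like Ltbp2 (r = 0.97, and 0.96 over 17), a matrix protein that was also among the activated fibroblast markers, and Plod2 (r = 0.96, and 0.95 over 17), which hydroxylates collagen lysines. Spp1 was most like Htatip2 (r = 0.91, and 0.87 over 17) and the lysophosphatidic acid receptor gene Lpar1 (r = 0.90, and 0.86 over 17). Mgp was most like Arhgap22 (r = 0.95, and 0.93 over 17) and Sntg2 (r = 0.94, and 0.93 over 17). Ogn was most like Dek (r = 0.81 on both sets) and Gatad2b (r = 0.74, and 0.75 over 17). Among the members themselves, Cilp and Mgp had r = 0.90 with and without the 2 libraries. Ibsp and Comp went from 0.83 to 0.22, Ibsp and Chad from 0.82 to -0.09, and Ibsp and Fmod from 0.90 to 0.63.

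These matrix genes and genes that act with them were taken from 11 lists of 102 genes, of which 93 were in the files and 81 were tested, the 8 tested members among them. In untreated versus control 9w, edgeR called 0 of the 81, with 11 at an unadjusted p under 0.05 (beside 18.2% of all genes), 2 by DESeq2 (beside 298 of the 12388 genes) and 9 by limma voom (beside 1037). In EMPA + PFD versus untreated, it called 3 of the 81, a share near the 3.82% of all genes. The 3 were lower and of the BMP pathway, which holds 17 tested genes with a median log2 fold change of -0.76 beside -0.03 over all genes. The other 10 lists had 0 called in it, with medians between -2.19 (matrilins and CILP family, 4 tested) and 0.45 (mineralization regulators, 7 tested). Over the 81, 18 had an unadjusted p under 0.05 there, beside 32.7% of all genes, DESeq2 called 5 (beside 715 of the 12388 genes), and limma voom called 6 (beside 834), with the member Ogn among them.

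The BMP antagonist Chrdl1 was at 16.1, 23.5 and 23.5 CPM in untreated and at 4.02, 8.49 and 4.81 CPM in EMPA + PFD. It fell by 1.87 on the log2 scale (SE 0.30, edgeR adjusted p = 0.00677), with no overlap of the groups. The ligand gene Bmp4 was at 19.7, 39.2 and 18.9 CPM in untreated and at 13.2, 5.26 and 6.79 CPM in EMPA + PFD, and fell by 1.63 (SE 0.46, edgeR adjusted p = 0.0365). Id3, a transcriptional target of BMP signalling, was at 140, 271 and 166 CPM and at 120, 69.2 and 70.0 CPM, and fell by 1.16 (SE 0.31, edgeR adjusted p = 0.0292). For each of these 3 genes, all EMPA + PFD libraries were below all untreated libraries, beside 37.5% of all genes whose groups did not overlap. The same held for endothelial markers (2201, 2571 and 2280 CPM in untreated, 1545, 1393 and 1480 CPM in EMPA + PFD) and smooth muscle markers (539, 660 and 823 CPM, and 335, 461 and 425 CPM). Ventricular cardiomyocyte markers were higher in EMPA + PFD (67076, 18200 and 60937 CPM, and 81013, 96578 and 76232 CPM), and the part of these markers in the BMP genes was not tested. With only the 6 libraries compared in the fit, 0 of the 3 were called (edgeR adjusted p = 0.0804 for Chrdl1, 0.107 for Bmp4 and 0.110 for Id3). Their log2 fold changes there were -1.88, -1.63 and -1.17. Without untreated replicate 2, untreated replicate 3 or EMPA + PFD replicate 2 the count was 1, Chrdl1. In these fits, in order, Bmp4 was at -1.20, -1.80 and -1.37 on the log2 scale, and Id3 at -0.83, -1.25 and -1.01. Without EMPA + PFD replicate 3, Bmp4 was at -1.48 (edgeR adjusted p = 0.120) and Id3 at -1.01 (edgeR adjusted p = 0.107). Without control 9w replicate 1, Bmp4 was at -1.63 (edgeR adjusted p = 0.0507). Without untreated replicate 1 or EMPA + PFD replicate 1 the count was 7. The count over all genes moved with it: from 473 of 12388 it went to 5 of 11505 with only the libraries compared, to 83, 210 and 59 without untreated replicate 2, untreated replicate 3 and EMPA + PFD replicate 2, and to 910 and 793 without untreated replicate 1 and EMPA + PFD replicate 1. Untreated and EMPA + PFD also differed in Eif2s3y, which was at 0 in each untreated library, and this difference and the treatment cannot be told apart. The same holds for the treatment in EMPA versus untreated and for the disease in untreated versus control 9w.

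In EMPA versus untreated and in PFD versus untreated, edgeR called 0 of the 81, with 17 and 6 at an unadjusted p under 0.05, beside 8.63% and 5.21% of all genes. DESeq2 called 3 of the 81 in EMPA versus untreated, beside 51 of the 12388 genes, with the member Comp among them. In EMPA + PFD versus control 9w, 10 were called, 4 higher and 6 lower, beside 12.1% of all genes, and they are named after their values were seen. The 4 higher were Ankh and Phospho1, which handle pyrophosphate and phosphate in mineralization, the cartilage transcription factor Sox6 and the receptor gene Bmpr1a. Of these, Phospho1 rose by 1.80 (SE 0.44) and Ankh by 1.65 (SE 0.31) on the log2 scale. The 6 lower were Bmp4, Bmp6, Chrdl1, Id1, Id3 and the hyaluronan and osteopontin receptor gene Cd44, which fell by 1.38 (SE 0.46, edgeR adjusted p = 0.0329). The call of Cd44 was lost with a replicate block (log2 fold change -1.38, edgeR adjusted p = 0.0523). It was also lost in 5 of the fits with 1 library left out, with log2 fold changes from -1.51 to -1.09. Without control 9w replicates 1 and 3 and untreated replicate 2, Cd44 was at -0.98, a change under 2-fold. These same 3 libraries held 5211, 23372 and 14891 CPM of atrial markers. Without them, in a fit that leaves 1 control 9w library, Bmp6 went to -0.32, a change under 2-fold. Bmp4 (-1.06, from -1.41) and Sox6 (1.49, from 1.25) kept a change over 2-fold there. With 1 library left out, the call of Bmp4 was lost in 4 fits (log2 fold changes -1.47 to -1.16) and that of Sox6 in 3 (1.05 to 1.15). The calls of Bmp6 (-0.91 and -1.11) and Bmpr1a (0.88 and 0.996) were lost in 2 each. Without EMPA + PFD replicate 2 the count was 5, beside 973 of 12383 genes. In this comparison too, cell type markers did not overlap. Ventricular cardiomyocyte markers were at 37584, 43702 and 38957 CPM in control 9w, below each EMPA + PFD library, and endothelial markers (2809, 2648 and 2480 CPM) and smooth muscle markers (686, 620 and 594 CPM) were above each, and their part in these calls was not tested.

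Position in the genome was read from the RefSeq annotation of assembly GRCr8, while the counts were made on rn6. Spp1, Mepe, Ibsp, Dmp1 and Dspp are neighbours, in this order, on chromosome 14. In HFpEF replicate 1 and EMPA replicate 2, Mepe had 68 and 64 counts against at most 15 elsewhere. Dmp1 was at 15.1 and 41.7 CPM against up to 34.2 CPM elsewhere. Spp1, Mepe and Ibsp were thus above their levels elsewhere in both libraries, and Dmp1 only in EMPA replicate 2. Dspp had at most 1 count in any library. Fmod lies beside the related genes Prelp and Optc, and Ogn beside Omd and Aspn. Chad overlaps Acsf2, Ogn overlaps Cenpp and Fmod overlaps a noncoding RNA, and since the overlap mode and strand setting of the counting were not given, reads there could have been split or shared.

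Promoters (250 bases before to 50 bases after the gene start) came from RefSeq GRCr8, where 9 of the 10 members matched and Mgp did not. Each was searched on both strands for CCAAT, for TATAAA, for ACCACA or ACCGCA (RUNX factors) and for ACAAAG or ACAATG (SOX factors). CCAAT was in 2 of the 9 (Ibsp and Fmod) and in 37.5% of all 33469 promoters of this length, and TATAAA in 4 of the 9 (Ibsp, Spp1, Chad and Ogn) and in 14.2% of all. The RUNX letters were in 4 of the 9 (Spp1, Cilp, Chad and Ogn) and in 22.9% of all, and the SOX letters in 2 of the 9 (Ibsp and Spp1) and in 29.1% of all. The 4 promoters of the members that were high together in HFpEF replicate 1 and EMPA replicate 2 are shown 5′ to 3′, with matches in capitals. Ibsp is at chr14:5757193-5757492 (minus strand), Comp at chr16:19089499-19089798 (minus strand), Chad at chr10:80008795-80009094 (plus strand) and Fmod at chr13:48045317-48045616 (plus strand). The capitals in Ibsp are, in order, a SOX match, CCAAT on the other strand and TATAAA on the other strand, those in Chad are a RUNX match on the other strand and TATAAA, and that in Fmod is CCAAT. Comp held none of these letters, and no motif was in all 4.
Ibsp: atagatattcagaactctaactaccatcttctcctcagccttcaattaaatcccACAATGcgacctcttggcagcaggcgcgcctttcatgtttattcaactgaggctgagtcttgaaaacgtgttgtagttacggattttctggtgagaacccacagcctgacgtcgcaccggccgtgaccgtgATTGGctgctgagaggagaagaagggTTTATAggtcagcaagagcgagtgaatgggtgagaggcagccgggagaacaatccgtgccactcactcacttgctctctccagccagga
Comp: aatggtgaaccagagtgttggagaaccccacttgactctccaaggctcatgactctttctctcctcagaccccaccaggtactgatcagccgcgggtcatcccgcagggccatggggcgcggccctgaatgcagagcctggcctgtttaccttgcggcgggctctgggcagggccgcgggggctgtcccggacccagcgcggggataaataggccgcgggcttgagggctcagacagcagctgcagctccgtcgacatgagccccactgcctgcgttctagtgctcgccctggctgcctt
Chad: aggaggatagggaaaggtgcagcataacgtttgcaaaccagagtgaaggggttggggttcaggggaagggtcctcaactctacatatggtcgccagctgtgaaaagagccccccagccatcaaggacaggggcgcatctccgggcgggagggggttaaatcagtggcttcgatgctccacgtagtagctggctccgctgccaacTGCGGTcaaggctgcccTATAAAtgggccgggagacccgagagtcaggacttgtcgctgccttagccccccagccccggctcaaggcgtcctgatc
Fmod: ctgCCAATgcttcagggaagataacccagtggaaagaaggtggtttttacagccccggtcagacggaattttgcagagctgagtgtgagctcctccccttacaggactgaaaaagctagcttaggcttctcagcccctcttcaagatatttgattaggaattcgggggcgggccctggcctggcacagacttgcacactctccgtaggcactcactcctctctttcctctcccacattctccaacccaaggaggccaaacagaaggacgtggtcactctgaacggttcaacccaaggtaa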

How the data were processed

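Whole-number counts per gene symbol were deposited by the authors, who trimmed reads with Trim Galore, checked them with FastQC, aligned them to rn6 with HISAT2 and counted them with HTSeq; tool versions were not given in the sources used here. Library totals ran from 7430539 to 13017754 counts. No pair of replicates was within sampling noise by a chi-square per gene, and each library counted once. Control 5w replicates 2 and 3 were the closest pair, with a mean of 7.05 and a median of 1.02. In the other pairs the means were 15.2 to 187 and the medians 1.81 to 16.3. Tests used edgeR 4.0.16 in R 4.3.3 after TMM scaling (filterByExpr by group, quasi-likelihood F test, 7 groups and 19 libraries in one model, Benjamini-Hochberg adjustment over 12388 genes). DESeq2 1.42.0 and limma 3.58.1 were alternatives, beside other normalizations, filters, a replicate block and single libraries left out. The fits were tested on simulated data. SE and 95% intervals were derived from the F statistics. Named genes were all members, pathway genes called in untreated versus control 9w or EMPA + PFD versus untreated, and the 2 genes most like each member (log2 CPM with a prior count of 2). Some results under this rule and the marker lists are not reported here. The members and lists were chosen with earlier results of these data known.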

Additional observations from a re-analysis of the deposited data

How the results depend on the processing

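Members called by edgeR stayed at 0 of 8 in all 6 tested comparisons with each single library left out. Among the other alternatives the exceptions were 1 member with limma voom (Ogn, EMPA + PFD versus untreated), 1 with DESeq2 (Comp, EMPA versus untreated) and 1 with only the libraries compared (Cilp, EMPA + PFD versus control 9w). Of 510 log2 fold changes of members under these alternatives, 477 kept their direction and side of the threshold, 3 passed it and 30 turned in sign. Of 912 with a library left out, 876 kept and 36 turned, none of them called. The cause was not tested. A fit without 1 EMPA or PFD library assumes that the lone library varies like the other groups.

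Log2 fold changes that turned were as follows. In untreated versus control 9w, limma voom gave Ibsp -0.10, Mgp -0.63 and Ogn -0.83. Mgp was at -0.013 with RLE scaling, -0.013 with DESeq2 and -0.072 with a replicate block. It was at -0.040 without control 9w replicates 1 and 3 and untreated replicate 2, called the atrial libraries below and left out after seeing the data. These held 5211, 23372 and 14891 CPM of atrial markers. Control 5w replicates 2 and 3 (6145 and 4669 CPM) and EMPA replicate 2 (5182 CPM) were near control 9w replicate 1 and were kept. For EMPA + PFD versus untreated, Ibsp was at 0.12 with limma voom and 0.12 without these atrial libraries, and Chad at 0.0092 with limma voom. In EMPA versus untreated, leaving out HFpEF replicate 1 and EMPA replicate 2, also chosen after seeing the data, gave Ibsp -0.46, Cilp -1.32, Chad -1.13 and Fmod -0.59. Limma voom gave Mgp 0.12 and Ogn 0.37, and without the atrial libraries Mgp was at 0.36. In PFD versus untreated, Cilp was at 0.020 with the replicate block and Ogn at 0.57 with limma voom, and without the atrial libraries Mgp was at 0.16 and Ogn at 0.15. In EMPA + PFD versus control 9w, Ibsp was at -0.053 with upper quartile scaling, -0.021 with no filter and -0.058 with the replicate block, and Spp1 at 0.083 with limma voom and 3.47 without the atrial libraries. For the interaction, leaving out HFpEF replicate 1 and EMPA replicate 2 gave Ibsp 0.93, Chad 1.00, Fmod 1.12 and Mgp 0.61, and it took r of Chad and Clec3a to -0.31, where Clec3a had at most 3 counts.

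With each library left out in turn, untreated versus control 9w ran from -0.12 to 0.46 for Ibsp, -0.42 to 2.94 for Spp1, -0.087 to 0.39 for Comp, -0.19 to 0.47 for Fmod, -0.65 to 0.28 for Mgp and -0.19 to 0.49 for Ogn. Ibsp in EMPA + PFD versus untreated ran from -0.45 to 0.12. EMPA versus untreated ran from -0.46 to 6.995 for Ibsp, -1.32 to 2.09 for Cilp, -1.13 to 3.00 for Chad, -0.59 to 2.95 for Fmod and -0.97 to 0.36 for Mgp. PFD versus untreated ran from -0.59 to 0.23 for Chad, -0.96 to 0.16 for Mgp and -0.76 to 0.29 for Ogn. The same range in EMPA + PFD versus control 9w was -0.20 to 0.22 for Ibsp and -2.14 to 1.02 for Spp1. The interaction ran from -6.52 to 0.94 for Ibsp, -3.13 to 1.00 for Chad, -2.43 to 1.12 for Fmod and -0.72 to 0.61 for Mgp.

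Pathway genes called in untreated versus control 9w, 0 of 81, were 2 with DESeq2, 9 with limma voom and 1 without the atrial libraries, and 0 to 3 with 1 library left out. The 3 of EMPA + PFD versus untreated became 5 with DESeq2, 6 with limma voom, 0 with only the libraries compared, 5 with the adjusted p alone and 1 without the atrial libraries, and 1 to 7 with 1 library left out. Over all genes the 473 of 12388 became 715, 834, 5 of 11505, 1501 and 33 of 12566 under these alternatives in the same order. In EMPA versus untreated, 0 became 3 with DESeq2 and 0 to 1 with 1 library left out, and in EMPA + PFD versus control 9w, 10 became 5 to 11. Members past the thresholds in HFpEF versus control 5w, 3 of 8, were 1 (Fmod) of the 5 tested with at least 10 counts in every library, a filter that left out Ibsp, Spp1 and Comp, 0 with only the libraries compared, and 0 to 3 with 1 library left out. They were 2 (Comp and Fmod) with DESeq2, limma voom, the replicate block and without the atrial libraries, and 2 (Ibsp and Comp) without both HFpEF replicate 1 and EMPA replicate 2.

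Replicate numbers were shared across groups, and of 52 same-numbered pairs of libraries 11 had a correlation of deviations over 0.1 (range -0.53 to 0.49). Pairs with different numbers were not compared, so whether the numbers pair the samples cannot be told from these values. The main fit did not use the numbers as pairs. A replicate block took the pathway count in EMPA + PFD versus untreated from 3 to 2, and the member count stayed at 0. Bmp4 was then at a log2 fold change of -1.51 (edgeR adjusted p = 0.0546).

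Depth limits Ibsp, with 14 of 19 libraries at 8 to 32 counts, and Tnmd, with at most 4 counts in any library. With 2 EMPA and 2 PFD libraries, a single heart sets a group mean. No fit held a term for Eif2s3y or for cell type markers, and values that move with them cannot be told apart from the groups where they differ between groups.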

Other observations

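Several genes were unusual in single libraries and were named after their values were seen. Runx2, a transcription factor of bone and hypertrophic cartilage, was at 28.9 CPM in HFpEF replicate 1 and 23.7 CPM in EMPA replicate 2, and at most at 13.3 CPM elsewhere. Mmp13 was at 4.02 and 134 CPM in these libraries and at most at 0.162 CPM elsewhere. Epyc, a small leucine-rich proteoglycan of cartilage, was at 34.3 CPM in untreated replicate 2, but at 1.15 CPM in HFpEF replicate 1 and 0.243 CPM in EMPA replicate 2. Msln, a mesothelial gene, was at 16.7 CPM in HFpEF replicate 1 and 1.21 CPM in EMPA replicate 2.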
